A study of Mus musculus with 6 samples.

Results

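Genes that build ribosomes and process structural RNA were read on the maps of Tex10 and of the promoter mark H3K4me3 (histone H3 trimethylated at lysine 4) in mouse primordial germ cell-like cells. The genes were the protein-coding genes on chromosomes 1 to 19 whose symbols begin with Nop, Utp, Rrp, Nol, Exosc, Pop or Noc followed by a digit. Nop56, Nop58 and Nol9 were left out, which gave 49 of 20722 protein-coding genes. The rule reads the symbol and no measured value, but the group was proposed with earlier results of these data known. Of the 3 genes left out, Nol9 and Nop56 had HA-Tex10, and the count with all 3 is given further down. The rule follows names and not function, so that it also took in Nol3, Nol4 and Nol4l, which are not known as ribosome assembly genes, and it left out assembly genes with other names.

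The cells were primordial germ cell-like cells of strain 129Sv/J at day 2 of culture, a culture model of the embryonic cells that give rise to eggs and sperm. All 6 samples were untreated, with 2 ChIP samples for an HA tag fused to the C terminus of Tex10, 2 for H3K4me3 and 2 of input DNA. The labels do not say from which promoter the tagged Tex10 was made or whether the line was a single clone, and no untagged cells were analysed here. The deposited lists hold 4331 HA-Tex10 intervals (median width 234 bp) and 29072 H3K4me3 intervals (median width 710.5 bp), 1 list per antibody and with no score. There is thus no value per replicate, no test between samples and no known depth, and a gene without an interval was only not called. Intervals given for shares are 95% Wilson intervals, which cover the counting of genes alone. Of 5 germ cell marker genes, 3 (Prdm1, Prdm14 and Tfap2c) had H3K4me3 at a transcription start site (TSS) and Nanos3 and Dppa3 had none. All 3 epiblast markers and all 3 mesoderm markers also had it, and the lists hold no expression values that would identify the cells.

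Ribosomal RNA is transcribed in the nucleolus as a long precursor and is cut, folded and modified while ribosomal proteins join it. The small subunit forms on a large assembly, the SSU processome, which holds the U3 small nucleolar RNA and many Utp, Rrp and Nop proteins, and other Nop, Rrp and Noc proteins work on the precursor of the large subunit. The RNA exosome trims and degrades RNA from its 3′ end, and RNase P and RNase MRP, which share the Pop proteins, cut precursors of transfer RNA and ribosomal RNA. Tex10 is itself known as a partner of the Rix1 complex, which acts on the large subunit precursor, and as a chromatin factor in pluripotent cells.

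H3K4me3 lay within 1 kb of a coding TSS at 48 of the 49 genes (98.0%), while 62.6% of all coding genes on these chromosomes had it. An HA-Tex10 interval lay within 1 kb of a coding TSS at 9 of the 49 (18.4%, 9.98 to 31.4%), against 9.13% of all coding genes and 14.3% of the coding genes with H3K4me3. The share is above the one for all genes, but its interval includes the one for genes with H3K4me3, which nearly all of these genes carry. The 9 genes were Nol11, Rrp9, Rrp36 and Utp18 of small subunit assembly, Nop16, Nop53 and Rrp1 of large subunit assembly, and Pop1 and Pop7 of RNase P and MRP. None of the 10 exosome subunit genes had one. Both marks were present at the same 9 genes, against 8.95% of all coding genes. This count nearly repeats that of HA-Tex10 alone, since 1854 of the 1891 coding genes with HA-Tex10 also had H3K4me3.

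The DNA under 6 of these intervals is shown because it holds the measured sites. The 3 shown first have their centre in a coding exon, downstream of the TSS. The others lie upstream of the 5′-most coding TSS of the named gene, over the start of a neighbour that is transcribed the other way. Parts annotated as untranslated regions are left out, so that Rrp9, Utp18 and Pop1 are shown in part, and 17 bases at the end of the Pop1 interval beyond such a part are not shown either. The sequences come from the RefSeq copy of GRCm38.p6 and read along the strand of the named gene. Capitals mark matches, on either strand, to short promoter motifs whose letters are given with the promoter windows, here the GC box, the CCAAT box, the E-box and the ETS motif.
Nol11, chr11:107189050-107189234, minus strand: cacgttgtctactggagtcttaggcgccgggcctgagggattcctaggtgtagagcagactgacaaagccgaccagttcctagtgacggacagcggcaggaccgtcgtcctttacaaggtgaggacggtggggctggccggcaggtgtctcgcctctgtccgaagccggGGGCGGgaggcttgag
Nop53, chr7:15945806-15946024, minus strand: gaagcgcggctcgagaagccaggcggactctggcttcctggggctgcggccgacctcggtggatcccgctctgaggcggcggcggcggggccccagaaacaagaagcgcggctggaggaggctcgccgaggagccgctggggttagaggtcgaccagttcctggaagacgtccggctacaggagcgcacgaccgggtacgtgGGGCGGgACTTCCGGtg
Rrp1, chr10:78412754-78412912, minus strand: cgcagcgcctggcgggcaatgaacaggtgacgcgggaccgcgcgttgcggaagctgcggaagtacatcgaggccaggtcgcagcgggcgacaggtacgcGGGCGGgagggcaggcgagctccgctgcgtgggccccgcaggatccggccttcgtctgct
Rrp9, chr9:106476950-106477116, plus strand: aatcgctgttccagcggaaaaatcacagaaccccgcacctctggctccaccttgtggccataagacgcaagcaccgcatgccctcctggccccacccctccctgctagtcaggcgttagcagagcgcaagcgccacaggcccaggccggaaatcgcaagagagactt
Utp18, chr11:93885773-93885851, minus strand: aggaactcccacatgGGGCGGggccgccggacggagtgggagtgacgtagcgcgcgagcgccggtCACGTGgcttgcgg
Pop1, chr15:34495044-34495117, plus strand: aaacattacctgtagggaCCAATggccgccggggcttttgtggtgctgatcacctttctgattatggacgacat

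Among the small subunit genes, 4 of 20 had an HA-Tex10 interval (20%, 8.07 to 41.6%), an interval that includes the 9.13% of all coding genes and the 14.3% of those with H3K4me3. Nol11 (ENSMUSG00000018433.14), which encodes an SSU processome protein also needed for transcription of ribosomal RNA, had an interval of 185 bp whose near edge lay 147 bp downstream of the TSS. Its H3K4me3 interval of 1201 bp began 59 bp downstream of the TSS and contained the HA-Tex10 interval. Utp18 (ENSMUSG00000054079.12), a subunit of the UTP-B part of the processome, had an interval of 209 bp on chromosome 11 from 93885773 to 93885981, 7 bp upstream of its TSS. This lay within the widest H3K4me3 interval of all 49 genes, 2999 bp from 93884492 to 93887490. Both intervals at Utp18 thus held a TSS of its neighbour Mbtd1, which is transcribed the other way.

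Rrp9 (ENSMUSG00000041506.15), which encodes the U3-specific protein of the processome, had an interval of 327 bp, from 106476790 to 106477116 on chromosome 9. Its near edge lay 153 bp upstream of the Rrp9 coding TSS, and the H3K4me3 interval of 1218 bp reached upstream only to position -104 from the TSS. The annotated gene begins further upstream, at 106475963, so that the HA-Tex10 interval lies within the gene as annotated. Rrp9 was the 1 gene of the 9 whose HA-Tex10 interval did not overlap H3K4me3. Rrp36 (ENSMUSG00000023971.9), needed for early cuts of the precursor, had the narrowest and the most distant interval of the 9, 143 bp wide and 333 bp upstream of a TSS, from 46674685 to 46674827 on chromosome 17. It lay within the annotated 3′ untranslated region of Klhdc3, a gene that ends upstream of Rrp36 on the same strand. The other 16 small subunit genes, among them Utp3, Utp4, Utp15, Utp20 and Nol6, had H3K4me3 and no HA-Tex10 interval.

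Among the 10 large subunit genes, 3 had an HA-Tex10 interval (30%, 10.8 to 60.3%), an interval that includes the 14.3% of genes with H3K4me3 and begins above the 9.13% of all coding genes. Nop53 (ENSMUSG00000041560.12), whose product joins the large subunit precursor and recruits the exosome to it, had an interval of 219 bp that began 50 bp downstream of the TSS. Rrp1 (ENSMUSG00000061032.9), a nucleolar protein of large subunit assembly, had one of 159 bp that began 131 bp downstream. Both lay inside H3K4me3 intervals, of 1709 bp and 1216 bp. Nop16 (ENSMUSG00000025869.11), another protein of the large subunit precursor, had an interval of 298 bp on chromosome 13 from 54590174 to 54590471, 84 bp upstream of its nearest TSS. Nop2, a methyltransferase of the large subunit RNA, Noc2l, Noc3l, Nol12, Rrp1b, Rrp8 and Rrp15 had none, and the nearest HA-Tex10 interval to Nop2 was 12984 bp away.

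Of the 4 genes for proteins of RNase P and MRP, Pop1 and Pop7 had an HA-Tex10 interval and Pop4 and Pop5 did not (50%, 15 to 85%, with 14.3% of genes with H3K4me3 just below). Pop1 (ENSMUSG00000022325.14) encodes the largest protein subunit, and its interval of 229 bp ended 32 bp upstream of a TSS. Pop7 (ENSMUSG00000029715.5) had the widest interval of the 9, 330 bp from 137502235 to 137502564 on chromosome 5, and it was the only one that held a TSS of its own gene. The Pop7 TSS lay in a gap between 2 H3K4me3 intervals, 829 bp wide on the downstream side and 815 bp wide on the upstream side, and the HA-Tex10 interval ran from the gap into the downstream one. Of 7 further RNase P and MRP genes, Rpp14 to Rpp40, none had an HA-Tex10 interval. The Wilson interval of 0 of 7 reaches 35.4%, and the limit of 3 counts, used where a count is 0, is 42.9%. It overlaps the interval of the 4 Pop genes. The Pop and Rpp genes are split here by symbol alone, so 2 of 4 does not stand for RNase P and MRP genes as a whole.

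All 10 exosome subunit genes, Exosc1 to Exosc10, had H3K4me3, with widths from 927 bp at Exosc2 to 2649 bp at Exosc5 and a median of 1741.5 bp. None had HA-Tex10 within 1 kb. The Wilson interval of 0 of 10 reaches 27.8% and the limit of 3 counts is 30%, so that a share at the level of other genes with H3K4me3 cannot be told from none with 10 genes. Exosc6 and Exosc9 came closest, with the nearest interval 6139 bp and 9900 bp from a TSS. The interval near Exosc9 held a TSS of Ccna2, the cyclin A2 gene, and the one near Exosc6 was 243 bp wide and lay outside the Exosc6 gene. At the other genes of this group the nearest interval was 21391 bp (Exosc1) to 873403 bp (Exosc8) away. Genes for proteins that work with the exosome gave 3 of 12 (25%, 8.89 to 53.2%). That interval includes the 14.3% of genes with H3K4me3 and the 9.13% of all coding genes, and it overlaps that of the 10 subunit genes. The 3 were Dis3, which encodes a catalytic subunit, Mtrex, the helicase that feeds RNA to the nuclear exosome, and Mphosph6, a nuclear cofactor. Mphosph6 lies on chromosome 8, where 30.0% of coding genes had HA-Tex10. The Dis3 and Mtrex intervals were each 229 bp wide and lay 17 bp and 5 bp from a TSS, and the Mphosph6 interval of 499 bp held one.

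**Figure D1:**
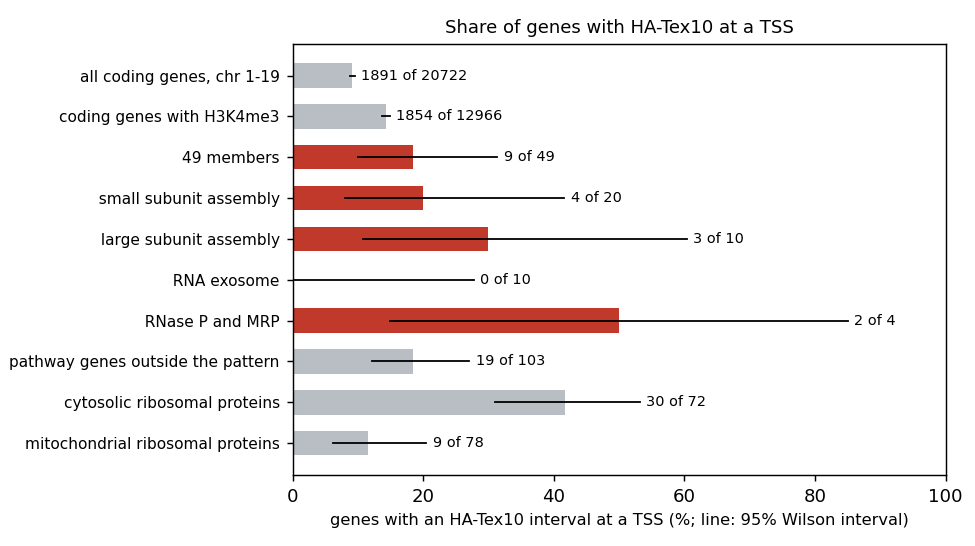
Share of genes for which HA-Tex10 lay no more than 1 kb from a coding TSS (x axis, percent), with the number of genes beside each bar and the 95% Wilson interval as a line. Red bars are the 49 genes and their role groups, grey bars are other gene sets. The interval of the 49 genes (9 of 49) spans the value of genes with H3K4me3, and the exosome has 0 of 10.

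The distance at which an interval counted made no difference to the count. With windows of 0.5, 2.5 and 5 kb the number of genes with HA-Tex10 was 9 each time, while the share of all coding genes was 8.52% at the narrowest and 11.2% at the widest. The interval just inside the 1 kb limit was the one at Rrp36, 333 bp away, and the one just outside was at Exosc6, 6139 bp away. In between lay none, and from 1 to 10 kb there were 3 genes, the third being Nol12 with an interval of 4 bp near Lgals1. No gene of the 49 had an HA-Tex10 interval elsewhere in its body, so that 9 of 49 also holds for the gene body and TSS together, against 12.1% of all coding genes. That share too lies inside the Wilson interval of 9 of 49. For the 40 genes without HA-Tex10 at a TSS, the median distance to the nearest interval was 121616 bp and the largest was 3806064 bp, at Utp23.

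Where the 9 intervals lay followed 2 layouts. At Nol11, Nop53, Rrp1 and Pop7 the centre of the interval lay downstream of the TSS, by 239, 159, 210 and 25.5 bp. None of these 4 genes had a divergent coding partner, that is a gene on the other strand that starts within 1 kb upstream. At Nop16, Pop1, Rrp9 and Utp18 the centre lay upstream, at -232.5, -146, -316 and -111 bp from the nearest TSS, and each had a divergent partner. These partners were Higd2a, Rida, Parp3 and Mbtd1, with 5′-most TSS 117, 49, 320 and 86 bp from that of the assembly gene. In all 4 pairs the HA-Tex10 interval held a coding TSS of the partner and none of the assembly gene. The one at Rrp9 nevertheless lay within the annotated gene, as given above. Rrp36, with its interval upstream and no divergent partner, was the exception to both layouts. These layouts were noticed in the data and are given as a description.

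Over all coding genes, 397 pairs of an HA-Tex10 interval and a gene with a divergent partner were present. In 42.6% of them the interval held a TSS of the gene itself, and in 22.4% it held a TSS of the partner and none of the gene. It held a TSS of the partner, with or without one of the gene, in 40.6%. The centre lay upstream of the nearest TSS in 66.0% of the pairs with a partner and in 55.6% of those without. Of all 2105 pairs the interval held the gene's own TSS in 40.4%, against 1 of 9 here (11.1%, 1.99 to 43.5%). A list of genes near an interval counts such a site for both neighbours, so that Nop16, Pop1, Rrp9 and Utp18 enter it through sites that hold the start of Higd2a, Rida, Parp3 and Mbtd1. The values do not say which of the 2 genes a site belongs to.

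**Figure D2:**
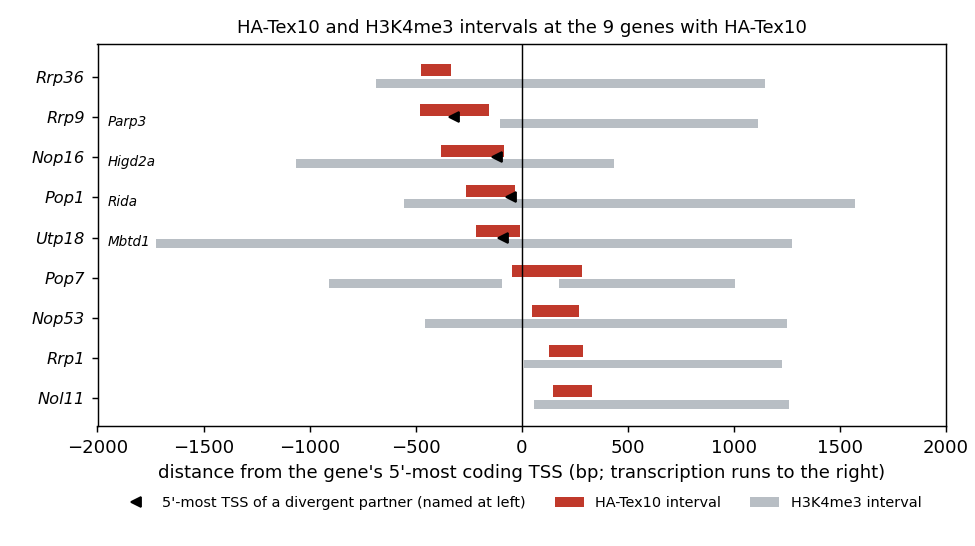
HA-Tex10 intervals (red) and H3K4me3 intervals (grey) at the 9 genes with HA-Tex10, by distance from the 5′-most coding TSS in bp, with transcription to the right. Triangles mark the start of a divergent partner, named at the left. In the 4 genes with a partner the red bar lies left of 0 over the triangle, and at Pop7 it lies over the gap between 2 grey bars.

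Divergent partners were frequent in the group. A partner was present at 14 of the 49 genes (28.6%), while 7.22% of all coding genes and 11.1% of those with H3K4me3 had one. They were Zdhhc16 at Exosc1, Bckdha at Exosc5, Zdhhc3 at Exosc7, Alg5 at Exosc8, Ddx51 at Noc4l, Cenpp at Nol8, Grk4 at Nop14, Dhrs1 at Nop9, Ankra2 at Utp15 and Chtf8 at Utp4, besides the 4 already named. Ddx51 also encodes a protein of ribosome assembly, so that this start region is shared by 2 such genes. Of the 14, only the 4 already named had HA-Tex10. Among all genes with H3K4me3, HA-Tex10 was present at 25.3% of those with a divergent partner (23.2 to 27.6%) and at 12.9% of those without (12.3 to 13.6%). A single HA-Tex10 interval can count for both genes of a divergent pair. The Wilson interval for genes with a partner treats them as separate and is thus too narrow. The H3K4me3 interval held a TSS of another coding gene at 19 of the 48 marked genes (39.6%, 27.0 to 53.7%), against 18.2% of all marked genes. In the exosome group this was so at 6 of 10 genes, with Dcaf10 at Exosc3 and Oplah at Exosc4 in addition to the 4 divergent partners.

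The widest H3K4me3 interval at each gene had a median of 1533.0 bp over the 48 marked genes (interquartile range 1199.5 to 2102.2 bp, 95% interval of the median 1228 to 1832 bp). Over all 12966 marked coding genes the median was 1360.0 bp (879 to 1981 bp), which lies within that interval. The spread was narrower than over all marked genes at the low end, with 4 of 48 genes below 879 bp, the lower quartile of all marked genes. It was narrower at the high end as well, with a 95th percentile of 2764 bp against 3180 bp, although the upper quartile was higher. The 5 widest were Utp18 (2999 bp), Nol4l (2849 bp), Utp4 (2826 bp), Exosc5 (2649 bp) and Exosc8 (2391 bp). The 5 narrowest were Pop5 (566 bp), Nol4 (690 bp), Nol7 (749 bp), Pop7 (829 bp) and Exosc2 (927 bp). Of the widest 5, Utp18, Utp4, Exosc5 and Exosc8 had an interval that also held the TSS of a divergent partner, and of the narrowest 5 none did.

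**Figure D3:**
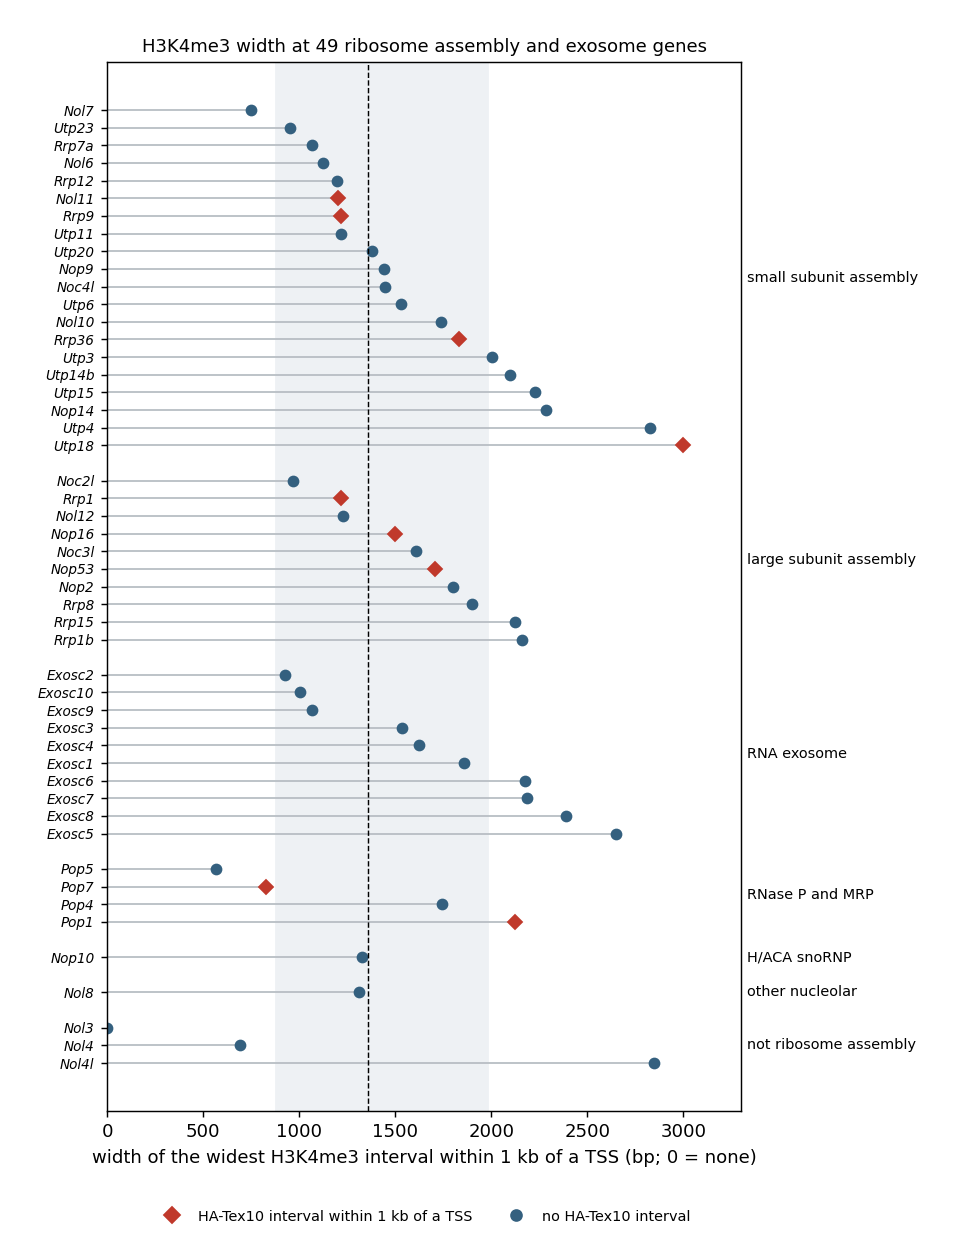
Width of the widest H3K4me3 interval within 1 kb of a TSS for each of the 49 genes, in bp, by role, with red diamonds for genes with HA-Tex10 and blue circles for those without. The shaded band is the interquartile range and the dashed line the median of all 12966 marked coding genes (1360.0 bp). Diamonds lie from 829 bp (Pop7) to 2999 bp (Utp18), among the circles.

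Nol3, an inhibitor of apoptosis and not an assembly factor, was the gene without H3K4me3, the nearest interval lying 2489 bp from its TSS. Nol4 had H3K4me3 of 690 bp, and Nol4l had 3 intervals within 1 kb of one of its TSS. The widest, of 2849 bp, covered the 5′-most TSS, and the other two began 83852 bp and 85406 bp downstream of it, near another TSS of the gene. Without these 3 genes, 46 of 46 had H3K4me3 and 9 of 46 HA-Tex10 (19.6%, 10.7 to 33.2%). More than 1 H3K4me3 interval at a TSS was present at 7 of the 48 marked genes (14.6%), against 20.0% of all marked genes, namely Exosc3, Noc2l, Nol4, Nol4l, Nol8, Pop7 and Utp3. At Exosc3 the further interval, of 972 bp, began 22072 bp downstream of the 5′-most TSS and held another TSS of that gene.

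H3K4me3 covered the 5′-most TSS at 42 of the 48 marked genes (87.5%, 75.3 to 94.1%), against 74.4% of all marked genes. At these 42 genes it reached a median of 444.5 bp upstream and 1124.5 bp downstream, and over all such genes 405 bp and 1000 bp. The 6 genes where it did not cover that TSS were Nol7, Nol8, Nol11, Nop10, Rrp1 and Pop7. At Nol7, Nol8, Nol11, Nop10 and Rrp1 the mark began 2 to 59 bp downstream. Nop10 encodes a core protein of the H/ACA particles that guide pseudouridine formation, and its nearest HA-Tex10 interval lay 2104198 bp away.

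**Figure D4:**
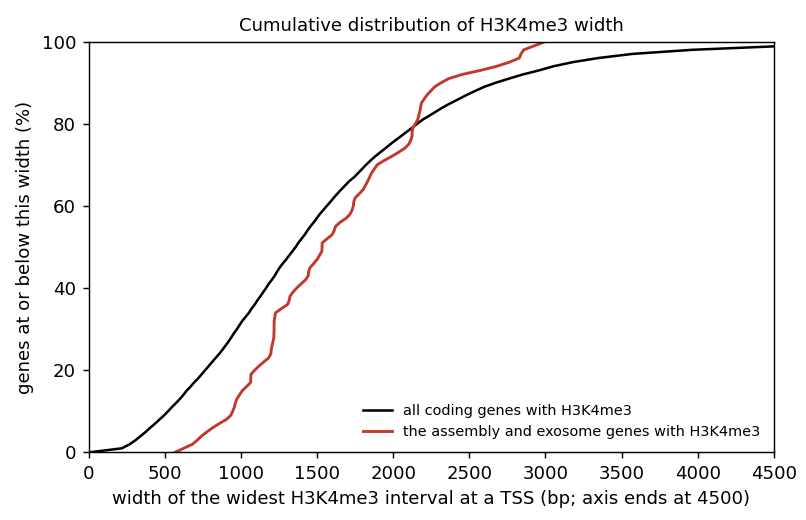
Cumulative share of genes (y axis, percent) by the width of their widest H3K4me3 interval at a TSS (x axis, bp), for the 48 marked genes of the group (red) and all 12966 marked coding genes (black). The red line starts at 566 bp and ends at 2999 bp, and its median is 1533.0 bp against 1360.0 bp.

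Width and HA-Tex10 were set side by side. Over all marked genes the share with HA-Tex10 went from 5.98% of those with H3K4me3 below the lower quartile of width, through 11.3% and 16.6% between the quartiles, to 23.3% above the upper one. In the group, in the same order, it was 1 of 4, 3 of 15, 3 of 15 and 2 of 14 genes, which shows no such increase, and 48 genes are too few to tell a trend of that size from none. The median width was 1498 bp at the 9 genes with HA-Tex10 and 1534 bp at the 39 marked genes without, while over all genes it was 1756.0 bp and 1294.0 bp. The mark also held a TSS of the partner at Utp18 (2999 bp), Pop1 (2125 bp) and Nop16 (1498 bp). It held no TSS of another coding gene at Rrp36 (1832 bp) and Nop53 (1709 bp). Nor did it at Pop7, Nol11, Rrp1 and Rrp9, where it was at most 1218 bp wide, although Rrp9 has a divergent partner.

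The HA-Tex10 intervals of the group had a median width of 219 bp (143 to 330 bp) and a median GC content of 63.2%, against 234 bp and 61.9% for the 1771 intervals at any coding TSS. Those at Nop16, Pop7 and Rrp9 were wider than the median of the whole list. When only HA-Tex10 intervals above that median width were kept, these 3 genes of 49 had one (6.12%), and 4.86% of all coding genes did. Width is the only measure of size in the list. None of the 9 intervals consisted mostly of repeated sequence, meaning 32-base words found at several places of the genome, compared with 7.34% of those at any coding TSS. The group has 3 genes on chromosome 8, Exosc6, Nol3 and Utp4, and none had HA-Tex10. Of all coding genes of that chromosome 30.0% did, which the Wilson interval of 0 of 3, up to 56.15%, includes. Without chromosome 8, 9 of 46 genes of the group had HA-Tex10 (19.6%), against 8.03% of all coding genes. The Wilson interval of 9 of 46, from 10.65 to 33.17%, lies above that share. It includes the 14.3% of genes with H3K4me3, a share in which chromosome 8 is counted. The share of genes with H3K4me3 was not read without that chromosome, so a difference from them is not shown.

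In the promoter windows, from 250 bases before to 50 bases from the 5′-most TSS, the 49 genes had a median GC content of 57.7% and a median CpG ratio (observed over expected) of 0.840. For genes with H3K4me3 these were 60.7% and 0.750, and for all coding genes 55.7% and 0.553. The window was searched on both strands for 8 motifs of which none contains another. These were the E-box CACGTG, bound by Myc and related factors, the NRF1 core GCATGCGC, the GC box GGGCGG, the CCAAT box CCAAT, the CRE TGACGTCA, the ETS motif CCGGAAGT, the YY1 motif AAGATGGCG and the TATA box TATAAA. The GC box was found at 31 of 49 genes (63.3%), as often as among marked genes (63.3%), and the CCAAT box at 18 (36.7% against 38.4%). The E-box was found at 10 genes (20.4%), with 9.96% of marked and 7.78% of all promoters, and the ETS motif at 7 (14.3%), with 7.45% and 4.96%. The NRF1 core and the CRE were each found at 3 genes (6.12%, against 5.05% and 3.32% of marked genes), the TATA box at 4 (8.16% against 6.79%) and the YY1 motif at 1, Exosc2 (2.04% against 2.65%). These are matches to letters and no measure of binding, and no test was made of them.

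The E-boxes are printed with 10 bases on each side, along the gene, since Myc is a known regulator of ribosome assembly genes and the E-box differed most from the marked genes in percentage points. Capitals mark the motif.
Nol11, chr11:107189409-107189434, minus strand: tgagcgttcgCACGTGgtctagactc
Utp18, chr11:93885771-93885796, minus strand: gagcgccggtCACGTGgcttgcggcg
Pop1, chr15:34495279-34495304, plus strand: gactccgggaCACGTGgaggaagaag
Utp4, chr8:106893645-106893670, plus strand: cgcaagcgcgCACGTGgggccggggc
Utp20, chr10:88826762-88826787, minus strand: gcactaactaCACGTGaggaaaagca
Rrp12, chr19:41896150-41896175, minus strand: tgaggacacaCACGTGggttctgccg
Rrp7a, chr15:83122994-83123019, minus strand: gcctgtgcacCACGTGtcctggaact
Nop2, upstream match, chr6:125131813-125131838, plus strand: gtccctggatCACGTGtgttccggtg
Nop2, downstream match, chr6:125131924-125131949, plus strand: ccccccagtgCACGTGgagcgggcct
Exosc5, chr7:25659099-25659124, plus strand: aacgctgagcCACGTGctagggccaa
Nol3, chr8:105276088-105276113, plus strand: cagctcaataCACGTGtgtctgattc

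There were 11 matches in 10 genes, Nop2 holding 2 of them. Of the 10 genes, Nol11, Utp18 and Pop1 had HA-Tex10 at a TSS, and the E-box of Utp18, which starts at position -20 from the TSS, lay inside the HA-Tex10 interval. Those of Nol11 and Pop1 start at -43 and -15 and lay outside it. The E-boxes at Nol11, at Nol3 (-42) and at Rrp7a (-208) lay outside H3K4me3, and the other 8 matches lay within it. Inside the 9 HA-Tex10 intervals themselves an E-box was present in 2, at Utp18 and Pop7, and in 8.08% of the 1771 intervals at any coding TSS. The GC box was in 5 of the 9 (Nol11, Nop16, Nop53, Rrp1 and Utp18) and in 47.0% of all, and the CCAAT box in 3 (Nop16, Pop1 and Utp18) and in 25.6%.

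**Figure D5:**
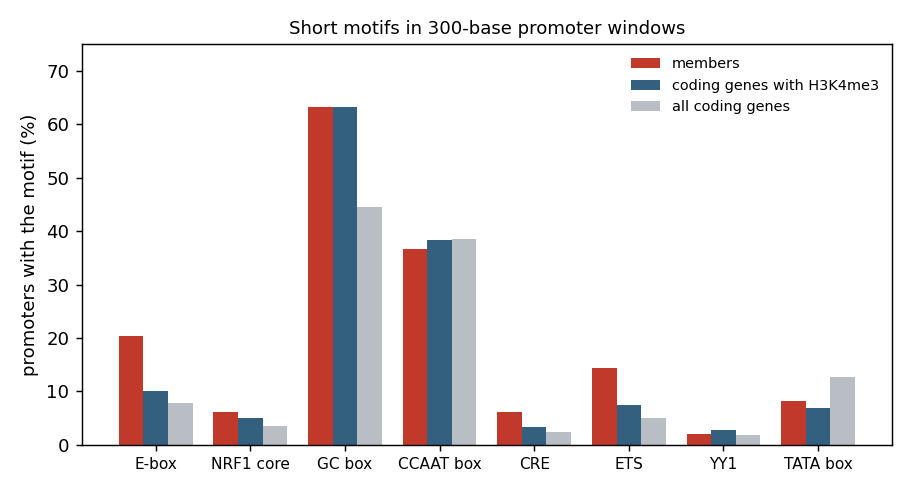
Share of promoter windows of 300 bases that hold each of 8 short motifs (y axis, percent), for the 49 genes (red), coding genes with H3K4me3 (blue) and all coding genes (grey). The red bar for the E-box stands at 20.4% and the blue one at 9.96%, while the bars of the GC box are level at 63.3%.

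Other genes of the pathway, taken from a list of 107 genes of which 106 were found on chromosomes 1 to 19, stood as follows. Without Nop56, Nop58 and Nol9, which the symbol pattern also matches, 103 remained, and all had H3K4me3. HA-Tex10 lay at 19 of the 103 (18.4%, 12.1 to 27.0%), a share near that of the 49 genes. Its interval includes the 14.3% of genes with H3K4me3 and lies above the 9.13% of all coding genes. Small subunit genes of this list gave 5 of 32 (6.86 to 31.75%), which were Bysl, Dcaf13, Ngdn, Riok1 and Wdr75. Large subunit genes gave 7 of 40 (8.745 to 31.95%), which were Ddx54, Ddx56, Mak16, Mrto4, Nifk, Nip7 and Nsa2. Small nucleolar RNA particle genes, here with Nop56 and Nop58 counted, gave 4 of 10 (16.8 to 68.7%), which were Nop56, Naf1 (an assembly factor of H/ACA particles), Ruvbl1 and Ruvbl2. Genes of the Rix1 complex and its partners, here with Nol9 counted, gave 2 of 5 (11.8 to 76.9%), which were Tex10 and Nol9. The intervals at Riok1 and Nifk were 11 bp and 15 bp wide, far below the narrowest of the 49 genes. Naf1, Nip7, Mak16 and Mphosph6 lie on chromosome 8, where 30.0% of coding genes had HA-Tex10, but none of the 49 genes did. The share of the 103 genes without that chromosome was not read.

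Of the 3 genes matched by symbol but left out, Nol9 and Nop56 had HA-Tex10 and Nop58 had none. Nol9 encodes the kinase that works with the Rix1 complex, and its interval of 302 bp held a TSS. Nop56 and Nop58 encode core proteins of the box C/D particles that guide ribose methylation, and the Nop56 interval of 326 bp lay 133 bp upstream of a TSS. With all 3 the count is 11 of 52 (21.2%, 12.2 to 34.0%). Tex10 itself had an interval of 123 bp at 71 bp from a TSS.

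Ribosomal protein genes were read the same way for reference. The cytosolic ones, 72 genes, had HA-Tex10 at 30 (41.7%, 30.99 to 53.2%) and a median H3K4me3 width of 2611.0 bp. The mitochondrial ones, 78 genes, had it at 9 (11.5%, 6.19 to 20.5%) with a median width of 1444.5 bp. The interval of the 49 assembly and exosome genes, up to 31.4%, ends slightly above the lower bound of the cytosolic ribosomal protein genes and overlaps that of the mitochondrial ones. The difference from neither set was tested.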

How the data were processed

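The authors deposited lists of genomic intervals with a start and an end in bp and empty score and strand columns. Per the submitters' processing notes, the build was mm10 and the tools included Bowtie2 2.3.4.3, SAMtools 1.9, MACS2 2.1.2 and HOMER, with no roles given. Thresholds, the use of input and whether replicates were pooled or intersected are not given in the sources used here. Of the intervals on assembled chromosomes, 0 ended past a GRCm38 chromosome. The further HA-Tex10 list held the 2990 intervals that overlap H3K4me3 and served as an alternative only.

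Genes and TSS (starts of protein-coding transcripts) came from GENCODE M21, and sequence from RefSeq GRCm38.p6. Positions count from 1. An interval counted if it held a TSS or had an edge within 1 kb of one. Mostly repeated means over 50% of 32-base words occurring more than once. Counting was tested on simulated data. Python 3.11.15 and scipy 1.17.1 were used. The gene set, role groups, pathway list and motifs were chosen with earlier results of these data known. Genes named were those with HA-Tex10, those without H3K4me3, those with an HA-Tex10 interval from 1 to 10 kb, those with several H3K4me3 intervals, the 5 widest and 5 narrowest for H3K4me3, pathway genes with HA-Tex10, and members in their role group.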

Additional observations from a re-analysis of the deposited data

How the results depend on the processing

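No paired analysis was possible because the intervals of the 2 samples per antibody come as a single list. Leaving out a replicate could not be done either. Of 36 alternatives to the 4 main values, 34 left the number of genes with HA-Tex10, or with both marks, between 8 and 11, or moved H3K4me3 only as given here. With HA-Tex10 intervals wider than the list's median only, the number of genes with HA-Tex10, and with both marks, was 3 in place of 9, and the 3 genes were Nop16, Pop7 and Rrp9. The third list and a required overlap with H3K4me3 each gave 8, the gene lost being Rrp9, whose interval does not meet the mark. Over these alternatives the number with H3K4me3 ranged from 46 to 51 and the median H3K4me3 width from 1515.0 to 1723.5 bp. The depth is unknown, so that a gene without an interval is not shown to lack the mark.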
